A study of Arabidopsis thaliana with 48 samples.

Results

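The 234 transcripts described here were chosen because they were counted in nuclei of wild-type Arabidopsis thaliana and almost nowhere in its cytoplasm. Each had at most 3 counts summed over the 12 cytoplasmic Col-0 libraries and a mean of at least 5 CPM (counts scaled to the same library total) over the 6 nuclear Col-0 libraries at 21 °C. They are 234 of the 27420 genes in the table, and all 234 are annotated as protein coding. Another 15956 genes reached 5 CPM in the same nuclei but had more than 3 cytoplasmic counts.

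RNA came from rosettes of 14-d plants (labelled as seedlings) that had grown in long days, of the wild type Col-0 and of tho5ab, separated into nuclear and cytoplasmic fractions by differential centrifugation. Plants were kept at 21 °C, or spent 3 h at 37 °C and were harvested with no recovery. Genotype, fraction and temperature gave 8 groups of 6 libraries. The labels name no allele of tho5ab and do not say whether libraries came from separate plants, so a p-value measures the spread between these libraries, which may be technical. The series asks about mRNA export defects of tho5ab under heat.

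A new mRNA is capped, spliced and cleaved at its end while it is still in the nucleus, and it is handed to the export machinery with the help of the THO complex, of which THO5 is a subunit. RNA that is still being made, that is held back at the gene, or that decays once it reaches the cytoplasm makes up a larger share of nuclear than of cytoplasmic RNA. Heat above the growth range changes transcription of most plant genes and, in many of them, the way introns are removed and mRNA leaves the nucleus.

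Cytoplasmic libraries held 1025185 to 2174279 counts and nuclear libraries 2601946 to 19914838, so 3 counts over the 12 cytoplasmic Col-0 libraries stand against a depth of 18787441. The mesophyll markers RBCS1A, RBCS2B, RBCS3B, RCA and LHCB1.3 together held 13813 to 97927 CPM in cytoplasmic libraries, as rosette leaves should, and 2220.0 to 4507 CPM in nuclear ones. The 3 root, 3 shoot meristem, 3 pollen and 3 seed markers summed, list by list, to at most 24.6 CPM in any library. The 4 phloem markers summed to 51.2 to 226 CPM in cytoplasmic and 116 to 251.5 CPM in nuclear libraries. The 4 guard cell markers summed to 254 to 336 CPM in Col-0 nuclei and 415 to 749.9 CPM in tho5ab nuclei at 21 °C, and to 144 to 235 and 251 to 335 CPM at 37 °C; their part in the results below was not tested. THO5B ran from 0.1 to 4.93 CPM in tho5ab nuclei against 9.3 to 12.4 CPM in Col-0 nuclei at 21 °C, and from 0 to 0.686 against 5.84 to 9.3 CPM at 37 °C, with 0 counts in the 12 cytoplasmic tho5ab libraries. THO5A went the other way at 21 °C, with 125 to 213 CPM in tho5ab nuclei and 56.1 to 66.2 CPM in Col-0 nuclei. At 37 °C it had 19.9 to 158 CPM in tho5ab and 272 to 321 CPM in Col-0 nuclei. In that heated tho5ab group the median was 30.8 CPM, but the library labelled replicate 7 held 158 CPM. The heated tho5ab cytoplasmic library labelled replicate 7 was likewise the highest of its group, at 22.5 CPM against a median of 2.11 CPM. The results were therefore also computed without the nuclear library and without replicate 7 in every group.

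Libraries were of 2 kinds in how they counted opposite strands, and this touches the choice of the 234 transcripts. In 16 of 48 libraries, genes lying inside a gene of the opposite strand had a median log2 ratio to that host of -4.55 or more, and in the other 32 libraries it was -6.04 or less (82 such pairs). The 16 include 2 of the 6 Col-0 nuclear libraries at 21 °C that set the level, replicates 4 and 7. In the other 4 of those libraries 174 of the 234 transcripts kept a mean of at least 5 CPM and 60 did not. Of the members, 48 were more than 5 times higher in the pair than in the 4, and 46 of these 48 fell below 5 CPM in the 4. Of all members, 102 overlap another gene, 87 of them on the opposite strand and 25 on the same strand, and 132 overlap none. The strand setting of the counting is not given in the sources used here, so counts of an overlapping gene and of its partner cannot be told apart. The 132 are therefore also counted on their own in the main comparisons. Of them, 112 kept at least 5 CPM in the 4 libraries, and 15 were still more than 5 times higher in the pair.

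The highest mean of the 234 belonged to AT3G59070, a protein with a cytochrome b561 domain (chr3:21832364-21834514, reverse strand, 2 exons), at 128 CPM in Col-0 nuclei at 21 °C. That mean came from 426 and 342 CPM in the pair of libraries with high opposite-strand counts, against 0.26 to 0.881 CPM in the other 4. AT3G59070 overlaps AT3G59068, a long noncoding RNA gene. In every nuclear group its libraries split in the same way, and in tho5ab nuclei at 37 °C replicate 4 held 107 CPM and the other 5 libraries at most 0.579 CPM. ANX1, a receptor-like kinase known from pollen tubes, overlaps AT3G04700 and AT3G04710 and split likewise, with 49.5 and 55.4 CPM in the pair and 0.13 to 1.6 CPM in the other 4 Col-0 nuclear libraries at 21 °C.

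Most of the other abundant members did not split this way. NF-YC12, a histone-fold subunit of the CCAAT-binding factor NF-Y (AT5G38140, chr5:15220208-15222524, reverse strand, 8 exons), overlaps no gene. Its 6 Col-0 nuclear libraries at 21 °C ran from 42.9 through a median of 60.8 to 65.7 CPM, with 3 counts in all 12 cytoplasmic Col-0 libraries. AT4G04750, a member of the major facilitator superfamily of transporters (chr4:2417800-2422822, forward strand, 18 exons), ran from 36.3 through 41.0 to 55.3 CPM with 0 cytoplasmic counts. AT5G22794, of unknown function (chr5:7608242-7611904, forward strand, 11 exons), ran from 34.4 through 58.4 to 74.1 CPM, also with 0. BGLU1, a beta-glucosidase (AT1G45191, chr1:17115762-17119246, forward strand, 12 exons), ran from 23.6 through 32.1 to 41.4 CPM with 3 counts. ABCG41, a full-size ABC transporter (AT4G15215, chr4:8671349-8679176, forward strand, 25 exons), ran from 25.9 through 31.8 to 37.3 CPM with 2 counts. These 5 genes overlap no other, and all are rich in introns.

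Most members lay low. Of the 234, 22 had at least 20 CPM in Col-0 nuclei at 21 °C and 154 had under 10 CPM. The level limit cut through a continuum, with AT1G66780, AT3G15740 and AT2G17050 just inside at 5.01 to 5.03 CPM and AT3G26040, AT3G28155 and AT5G13250 just outside at 4.981 to 4.997 CPM. So did the count limit, since 68 genes at this level had 0 cytoplasmic counts, 53 had 1, 56 had 2, 57 had 3, and 65 had 4. The members at 3 counts with the highest level were NF-YC12, AT1G73066 and RLP41, and the genes at 4 counts with the highest were AT1G68945 at 156 CPM, CRK28 at 51.5 CPM and AT1G29720 at 36.5 CPM. TMM is a scaling that takes the bulk of genes as equal between libraries. With library totals scaled this way, only 97 genes met the limits, all of them among the 234. The reason is that the factors of Col-0 nuclear libraries at 21 °C were 1.71 to 1.83.

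The 250 bases before the annotated start are shown for 5 members whose window holds no annotated gene and which carry the results below, 4 that fell with heat in tho5ab nuclei and AT4G10843, which rose. Capitals mark a pair of heat shock element units, GAANNTTC or TTCNNGAA (each its own reverse complement), or a TATA motif, TATAAA or TTTATA (the same motif read on either strand). Sequences are from RefSeq TAIR10.1, whose nuclear chromosomes have the same lengths as TAIR10, and read 5′ to 3′ on the gene's strand. AT4G10843 itself (chr4, forward strand) overlaps AT4G02885, a gene of the class misc_RNA.
NF-YC12, chr5:15222525-15222774, reverse strand: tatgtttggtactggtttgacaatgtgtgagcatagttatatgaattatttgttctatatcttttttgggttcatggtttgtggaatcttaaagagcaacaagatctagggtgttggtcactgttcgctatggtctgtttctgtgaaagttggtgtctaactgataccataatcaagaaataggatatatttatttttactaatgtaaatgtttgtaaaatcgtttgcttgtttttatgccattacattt
AT4G04750, chr4:2417550-2417799, forward strand: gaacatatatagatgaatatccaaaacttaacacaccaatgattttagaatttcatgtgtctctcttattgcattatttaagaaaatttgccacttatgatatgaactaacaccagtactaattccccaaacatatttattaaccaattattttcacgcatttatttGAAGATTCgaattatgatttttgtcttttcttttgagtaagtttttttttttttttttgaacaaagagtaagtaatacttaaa
BGLU1, chr1:17115512-17115761, forward strand: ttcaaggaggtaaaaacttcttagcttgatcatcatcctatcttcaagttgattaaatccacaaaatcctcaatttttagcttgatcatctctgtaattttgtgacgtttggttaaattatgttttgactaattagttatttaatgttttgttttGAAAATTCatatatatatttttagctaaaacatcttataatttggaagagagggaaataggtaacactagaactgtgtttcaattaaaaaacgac
ATCSLA15, chr4:7796042-7796291, reverse strand: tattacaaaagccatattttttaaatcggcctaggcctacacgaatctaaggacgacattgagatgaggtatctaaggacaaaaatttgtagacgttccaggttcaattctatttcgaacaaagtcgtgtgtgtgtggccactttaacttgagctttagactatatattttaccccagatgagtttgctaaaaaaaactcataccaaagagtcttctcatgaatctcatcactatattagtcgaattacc
AT4G10843, chr4:6661811-6662060, forward strand: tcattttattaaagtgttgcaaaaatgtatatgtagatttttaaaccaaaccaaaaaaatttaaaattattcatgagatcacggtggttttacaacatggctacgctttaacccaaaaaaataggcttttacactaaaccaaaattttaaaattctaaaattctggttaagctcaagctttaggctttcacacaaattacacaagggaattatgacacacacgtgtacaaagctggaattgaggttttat
The heat shock element pair was found in the windows of AT4G04750 and BGLU1 and not in the other 3, and the TATA motif in none of the 5. Over all 27420 genes the pair was in 16.1% of such windows and over the 234 members in 13.7%. The TATA motif was in 47.4% of all windows and in 39.7% of the members' windows. A match is a string of letters and not a site of binding.

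By annotation, the list held small groups of repeat proteins, receptors and kinases beside 42 members of no described function. The word groups were picked after the list of members had been seen, so their shares describe it. Of the 234, 15 carried pentatricopeptide or tetratricopeptide repeats (6.41%, against 2.73% of the 15956 other genes with at least 5 CPM in Col-0 nuclei); such proteins mostly bind RNA in chloroplasts and mitochondria. Of these 15, 12 have no intron and 14 overlap no gene. Receptor-like proteins, which have outer leucine-rich repeats but no kinase and act in defence and development, gave 9 members of the RLP series. Of the 9, 6 overlap no gene, and 3 were more than 5 times higher in the pair of libraries with high opposite-strand counts. Products whose annotation holds the word kinase numbered 23 (9.83% against 6.19%), among them CRK4 and WNK3; this match takes in NET3C, named for an interaction with kinases, and misses SRF4. Over all members 23.1% lack introns, against 12% of the other genes at that level and 20.6% of all genes, and the median transcript had 1755 bases against 1854 among the other genes at that level.

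Members were spread over the genome with a few groups. Of the 234, 36 have another member within 10 kb, in 16 groups of at most 3 genes. One group holds AT4G31351, AT4G31354 and AT4G31355 (chr4:15217257-15220811), and another RLP39, RLP41 and AT3G25012 (chr3:9099060-9112936). A gene on the same strand ended within 500 bases upstream of 60 members (25.6%, against 21.4% of the other genes at that level). In 42 of the 60 pairs the upstream gene had the higher Col-0 nuclear level. For NF-YC12 it was PMI15, 342 bases away and at 487 CPM. Whether reads run on from the upstream gene was not tested.

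**Figure D1:**
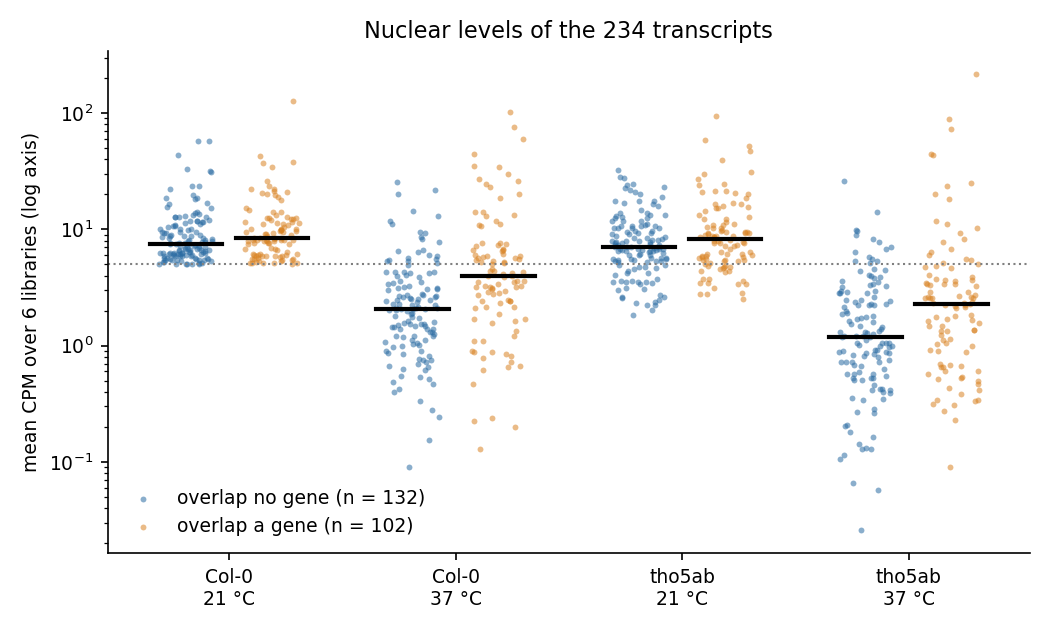
Mean CPM of each of the 234 transcripts over the 6 libraries of each nuclear group, on a log axis, with transcripts that overlap no gene in blue and those that overlap a gene in orange. Black bars are medians over transcripts and the dotted line marks the 5 CPM that the choice required in Col-0 at 21 °C; both heated groups lie lower.

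In tho5ab the same transcripts were more often seen in the cytoplasm. The 12 cytoplasmic tho5ab libraries held 1322 counts of the 234 in 18653038, and the 12 of Col-0, which chose the list, held 336 in 18787441. Their summed level was 107 ± 26.6 CPM (SD, n = 6) in tho5ab at 21 °C, with libraries from 66.4 to 137 CPM, and 43.5 ± 16.4 CPM at 37 °C. In Col-0 it was 27.2 ± 12.6 CPM and 11.3 ± 7.63 CPM, values that the choice itself kept low. Of the 234, 49 had 0 counts in the tho5ab cytoplasm, 117 had at most 3 and 48 had at least 10, and no member reached 5 CPM there in either group. The 132 that overlap no gene held 826 of the tho5ab counts and 209 of those in Col-0, with 25 at 0 in tho5ab, 59 at 3 or fewer and 32 at 10 or more. The heated tho5ab library of replicate 7 had the highest sum of its group, 72.8 CPM, and without it the mean was 37.6 ± 8.98 CPM (SD, n = 5). The same limits applied to tho5ab libraries picked 286 genes. These had 421 counts in the tho5ab cytoplasm and 1800 in that of Col-0, so each list was low in the genotype that chose it and higher in the other. Both lists shared 81 genes, 34.6% of the Col-0 list and 28.3% of the tho5ab list.

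**Figure D2:**
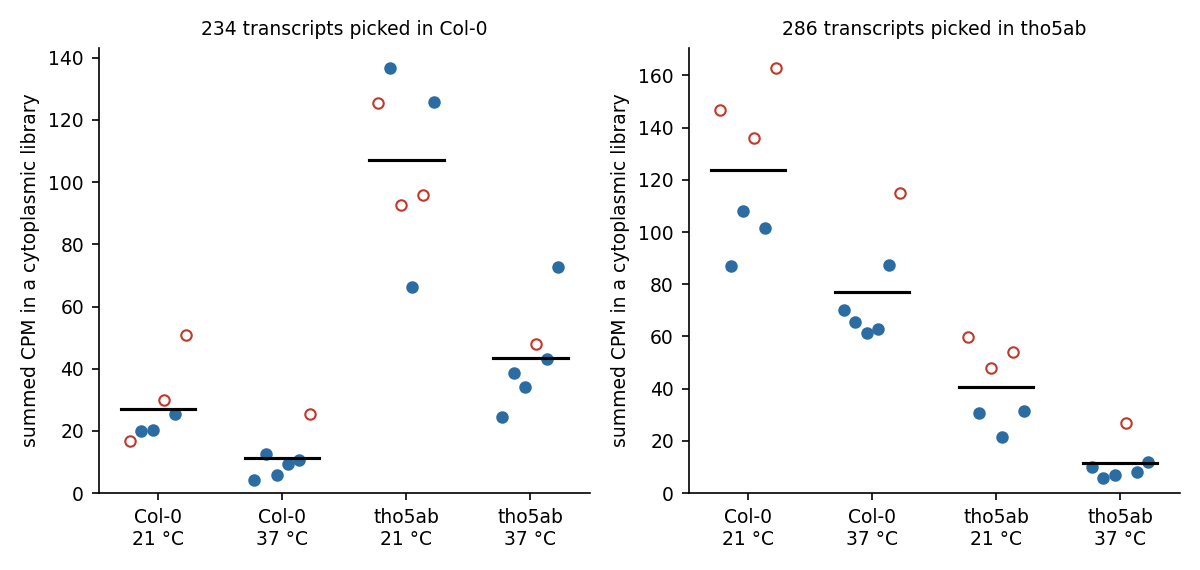
Summed CPM in each cytoplasmic library of the 234 transcripts picked in Col-0 and of the 286 picked by the same limits in tho5ab, with group means as black bars and libraries of high opposite-strand counts as open red points. Each list is low in the genotype whose libraries chose it, at 27.2 CPM for the 234 in Col-0 at 21 °C and 40.8 CPM for the 286 in tho5ab at 21 °C.

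The member with the highest count in the tho5ab cytoplasm was AT3G27330, which encodes a RING-type zinc finger protein (chr3:10116674-10120645, reverse strand, 7 exons, no overlap), with 27 counts at 21 °C and 16 at 37 °C against 1 in all Col-0 libraries. Next came QWRF3, of a family of microtubule-associated proteins, with 37 counts, and SRF4, a receptor-like kinase of the STRUBBELIG family, with 28. Both overlap other genes. AT3G08820, a pentatricopeptide repeat gene with no overlap, had 26 counts and ABCG41 had 25. QWRF3 and SRF4 had 0 counts in the Col-0 cytoplasm, and AT3G08820 and ABCG41 had 3 and 2.

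The split between fractions was tested in tho5ab, whose libraries took no part in the choice. Of the 234 transcripts, 220 passed the filter on low counts and 14 did not. No member had a mean above 3.907 CPM in any cytoplasmic group. Members thus passed mainly through their nuclear libraries, among them those that chose the list. This favoured calls of higher in nuclei beforehand, so the counts below only describe the members that passed and do not speak for all. At 21 °C 174 of 220 were higher in tho5ab nuclei than in tho5ab cytoplasm and 0 were lower (edgeR adjusted p below 0.05). Over all 17981 genes tested 40.5% were higher and 27.4% were lower, and over the other genes with at least 5 CPM in Col-0 nuclei 42.8% and 27.1%. Among the 123 tested members that overlap no gene 98 were higher, and among the 97 that overlap one 76 were. At 37 °C 101 of 220 were higher and 0 lower, 57 of the 123 among them, with 37.0% of all genes tested higher and 26.9% lower (39.2% and 26.5% over the others at that Col-0 level). The number of calls depended on the fit. With only the 2 groups compared, fewer genes passed the filter. That fit kept 85 of the 174 calls at 21 °C and 39 of the 101 at 37 °C. The median member had 7.63 CPM in tho5ab nuclei at 21 °C and 1.56 CPM at 37 °C, and the part of this level in the number of calls was not tested. With members at 0 cytoplasmic counts put at 3 counts over the group, the median ratio of nuclear to cytoplasmic CPM was 17 at 21 °C (76 members at 0) and 4.87 at 37 °C (134 at 0). These ratios use plain CPM, and with TMM factors of 1.69 for tho5ab nuclei and 0.74 for tho5ab cytoplasm at 21 °C they are smaller. They compare shares of the RNA of each fraction and not amounts. With DESeq2 size factors the median of all genes at 21 °C moved from 0.48 to 0.85. The share of all calls that were higher moved from 59.6% to 68.2%. All 174 and 101 calls of members were kept.

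The largest lower bound at 21 °C was that of AT4G31405, of unknown function (chr4:15239901-15241672, reverse strand, 3 exons), which overlaps the long noncoding RNA gene AT4G08505. It held 44.2 to 74.98 CPM in the 6 tho5ab nuclear libraries at 21 °C with a median of 60.1 and 0 counts in the cytoplasm, so that nuclei exceeded cytoplasm at least 157-fold in plain CPM, and at least 68.8-fold with TMM scaling, if the cytoplasm is set to 3 counts over its 6 libraries (edgeR adjusted p = 6.37e-15). AT4G31354, also of unknown function, was at least 315-fold higher at 37 °C and AT2G40715 at least 155-fold, or 122-fold and 59.9-fold with TMM scaling (edgeR adjusted p = 8.54e-16 and 8.04e-14), and both overlap other genes. AT3G25012 was at least 57.4-fold higher at 21 °C, or 25.4-fold with TMM scaling, where edgeR gave an adjusted p of 4.25e-08. It overlaps RLP41 and has a near-identical copy, so its counts are uncertain. At the other end stood AT3G26922, an F-box protein gene with no overlap, at 9.36 ± 3.64 CPM (SD, n = 6) in nuclei and 14 counts in the cytoplasm at 21 °C (1.37 ± 0.56 on the log2 scale, where the error is an approximate standard error, edgeR adjusted p = 0.0288). NAC088, a gene of the NAC family of transcription factors, and AT4G31100, a wall-associated kinase, were near it at 1.48 ± 0.63 and 1.53 ± 0.59 (edgeR adjusted p = 0.0348 and 0.0206). In the 32 libraries with low opposite-strand counts AT4G31100 kept its call and AT3G26922 and NAC088 lost theirs. AT4G31100 lost its own without replicate 5, 6 or 7 and with only the 2 groups fitted. At 37 °C the smallest called differences were those of AT3G28170 (1.47 ± 0.63), AT3G14463 (1.54 ± 0.68) and SRF4 (1.70 ± 0.61), with edgeR adjusted p from 0.0145 to 0.0468, and each lost its call when at least 1 replicate number was left out. AT3G27330 did not differ past the threshold at either temperature (-0.14 ± 0.68 and 0.28 ± 0.72, edgeR adjusted p = 0.859 and 0.75).

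Heat lowered most of these transcripts in tho5ab nuclei. Of the 220 tested, 135 fell and 9 rose between 21 °C and 37 °C, where 27.1% of all genes tested fell and 25.1% rose. The median log2 change was -1.90, against -0.07 over all genes tested. Of the members that overlap no gene 89 of 123 fell and 2 rose, with a median of -2.20, and of those that overlap a gene 46 of 97 fell and 7 rose; the difference between these sets was not tested. High opposite-strand counts were in 3 of the 6 libraries at 21 °C and 1 of the 6 at 37 °C. With a covariate for this kind of library 16 members rose and 142 fell, in the 32 other libraries alone 13 and 135, and with only the 2 groups fitted 15 rose. The choice required a level in Col-0 nuclei at 21 °C and none in those at 37 °C, and 154 of the 234 lay under 10 CPM. Its limit of 3 counts also covered the heated Col-0 cytoplasm, so a transcript that heat raised there could not be a member. The part of this choice in the numbers that fell and rose was not tested. Of the other 15952 tested genes with at least 5 CPM in Col-0 nuclei at 21 °C, which were not matched for level and had no cytoplasmic limit, 27.5% fell and 25.2% rose, with a median of -0.06. In a mixed tissue, fewer cells of a type and less RNA per cell cannot be told apart. With DESeq2 size factors in place of TMM the median of all genes moved from -0.07 to -0.24, and 8 members rose and 141 fell.

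The deepest fall past the threshold was that of ATCSLA15, of the cellulose synthase-like A family that makes mannan backbones (AT4G13410, chr4:7792016-7796041, reverse strand, 9 exons, no overlap). It went from 1.92 to 7.80 CPM in the 6 tho5ab nuclear libraries at 21 °C, with a median of 5.58, to 0 in 5 libraries and 0.155 CPM in the sixth at 37 °C (-6.47 ± 0.78, edgeR adjusted p = 1.93e-09). The groups did not overlap. AT3G25012, which lies opposite RLP41 and has a near-identical copy, AT3G25020, went from 15.4 to 31.6 CPM down to 0 to 0.433 CPM (-6.01 ± 0.57, edgeR adjusted p = 4.03e-11). RLP41 fell by 5.73 ± 0.85 (edgeR adjusted p = 2.04e-07), and its libraries at 21 °C were of both kinds, with 5.61 to 18.9 CPM in the 3 of low and 77.6 to 110 CPM in the 3 of high opposite-strand counts. In the 32 libraries of low counts alone it fell by 3.93 on the log2 scale (edgeR adjusted p = 2.14e-06). AT4G13572 fell by 5.11 ± 1.72 (edgeR adjusted p = 0.0124), but it had 40.0 to 69.2 CPM in the 3 libraries of high opposite-strand counts and 0 to 0.452 CPM in the other 3 at 21 °C, and the call was lost without replicate 1 and with DESeq2's Wald test. AT2G12170, with no overlap, fell by 4.85 ± 0.69, from 1.44 to 5.76 CPM down to at most 0.185 CPM (edgeR adjusted p = 6.09e-07).

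Among the abundant members AT4G04750 fell from 18.5 to 41.8 CPM, with a median of 26.1, down to 0.579 to 1.49 CPM, with a median of 1.21 (-4.24 ± 0.35, edgeR adjusted p = 1.29e-12). BGLU1 fell by 3.45 ± 0.56 and ABCG41 by 2.82 ± 0.38 (edgeR adjusted p = 1.77e-06 and 1.61e-08). NF-YC12 fell less, from 24.5 to 42.6 CPM down to 4.8 to 10.8 CPM (-1.57 ± 0.30, edgeR adjusted p = 2.15e-05), and its 6 heated libraries all lay below the 6 at 21 °C. PMI15, which ends 342 bases upstream on the same strand, went from a mean of 590 to 121 CPM in the same nuclei. In Col-0 nuclei PMI15 went from 487 to 148 CPM, and its part in the counts of NF-YC12 was not tested. AT5G22794 fell by 1.06 ± 0.25 (edgeR adjusted p = 0.000486). Of all tested members 61.4% fell, and of those with no overlap 72.4%. Among the 9 RLP genes 8 fell and 0 rose, from RLP2 at -1.03 ± 0.39 to RLP41. RLP52, with no overlap, fell by 3.54 ± 0.65 and RLP38 by 3.68 ± 0.60 (edgeR adjusted p = 1.64e-05 and 1.86e-06), while RLP48, at -1.82 ± 1.48, did not pass (edgeR adjusted p = 0.31). Of the 15 repeat proteins 11 fell and 0 rose. SLO2, an RNA-editing factor of mitochondria, went from 19.4 to 23.1 CPM down to 1.56 to 5.69 CPM (-2.34 ± 0.41, edgeR adjusted p = 4.92e-06), and CRR4, an editing factor of chloroplasts, did not pass at 0.60 ± 0.39 (edgeR adjusted p = 0.197). Of the 23 matched by the word kinase 13 fell and 0 rose. Since most members fell, these counts are not read as traits of the families.

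**Figure D3:**
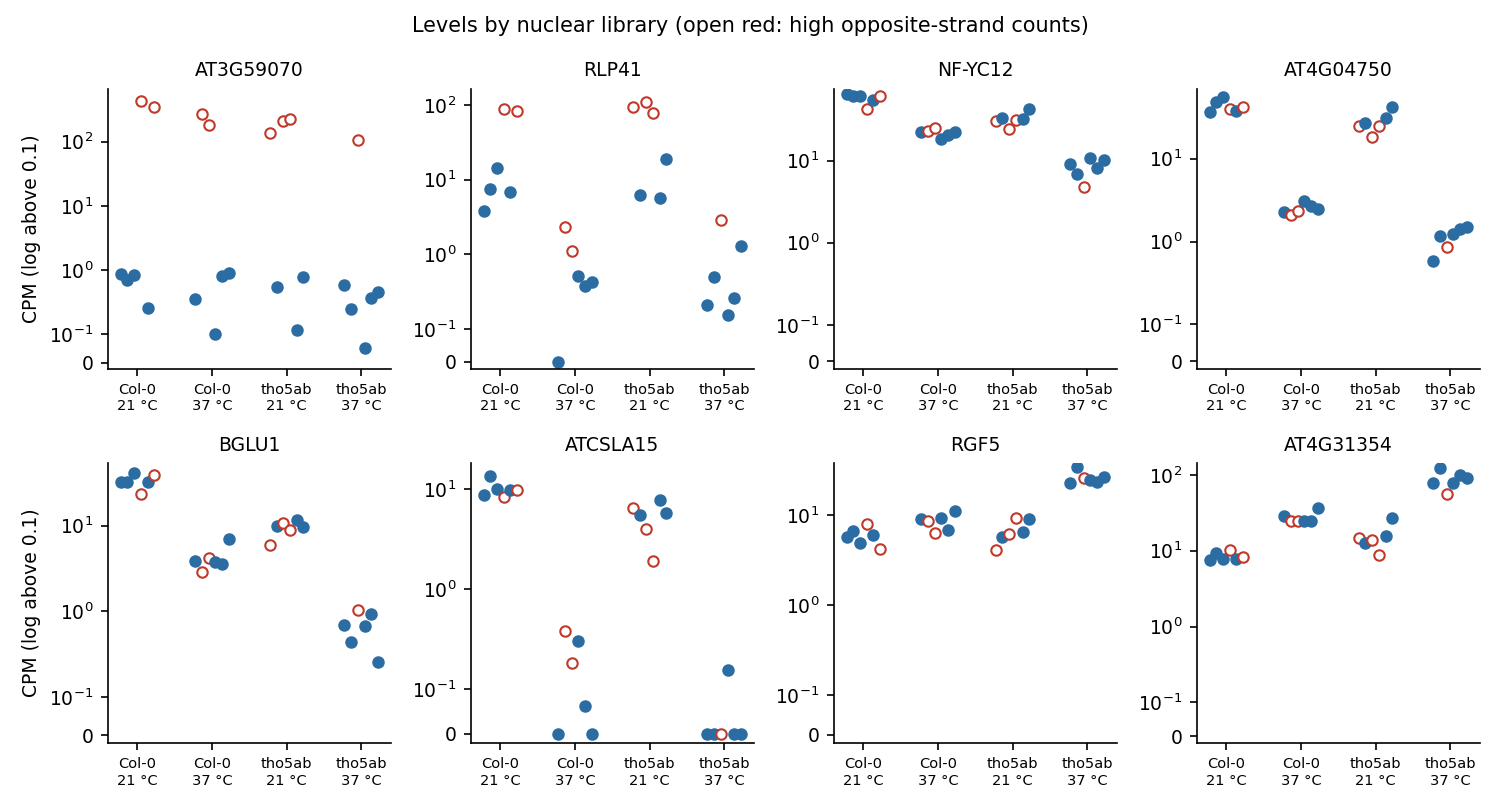
CPM of 8 members in each of the 24 nuclear libraries, on an axis that is linear below 0.1 CPM and logarithmic above, with open red points for libraries of high opposite-strand counts. AT3G59070 and RLP41 split by the kind of library, NF-YC12, AT4G04750, BGLU1 and ATCSLA15 lie lower in heated libraries, and RGF5 and AT4G31354 lie highest in heated tho5ab nuclei.

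**Figure D4:**
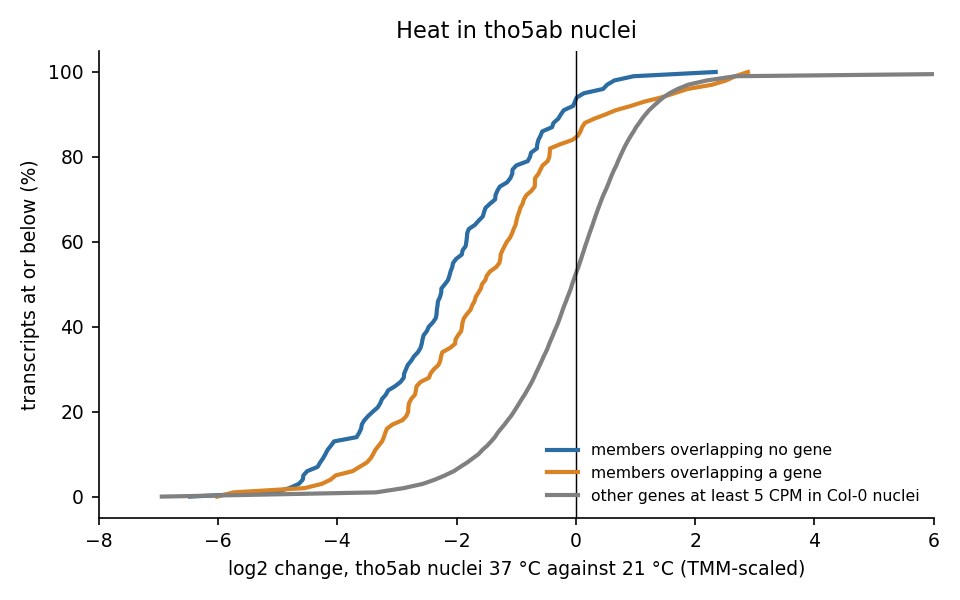
Share of transcripts, in percent, at or below each log2 change between 21 °C and 37 °C in tho5ab nuclei, for the 123 tested members that overlap no gene, the 97 that overlap a gene and the 15952 other tested genes with at least 5 CPM in Col-0 nuclei. The curves of the members lie to the left, with medians of -2.20 and -1.57 against -0.06.

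The 9 members that rose with heat in tho5ab nuclei were AT4G31354, AT4G31351, AT2G40715, RGF5, AT4G31405, AT4G10843, AT1G19397, AT3G46730 and AT3G52680. AT4G31354 went from 8.84 to 27.3 CPM, with a median of 14.2, up to 56.2 to 124 CPM, with a median of 85.6 (2.89 ± 0.25, edgeR adjusted p = 2.01e-11). Its neighbour AT4G31351 rose by 2.66 ± 0.30 (edgeR adjusted p = 1.79e-09), AT2G40715 by 2.51 ± 0.29 (edgeR adjusted p = 4.38e-09) and AT4G31405 by 2.25 ± 0.22 (edgeR adjusted p = 7.6e-11). AT4G31405 reached 175 to 300 CPM, the highest heated level of any member that did not split by kind of library. AT4G10843 rose by 1.80 ± 0.24 (edgeR adjusted p = 5.44e-08). These 5 encode proteins of unknown function and overlap other genes, and AT4G31351 also has a near-identical copy, so their counts are uncertain. AT1G19397 rose by 1.62 ± 0.45 and AT3G46730, a gene of the NB-ARC class of disease resistance proteins, by 1.37 ± 0.42 (edgeR adjusted p = 0.00315 and 0.00689), and both overlap another gene.

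RGF5 and AT3G52680 were the risers with no overlap. RGF5 encodes a peptide of the root meristem growth factor family (AT5G51451, chr5:20898108-20898775, forward strand, 2 exons). It went from 4.14 to 9.22 CPM, with a median of 6.28, up to 22.6 to 34.1 CPM, with a median of 25.2 (2.34 ± 0.42, edgeR adjusted p = 1.18e-05). All 6 heated libraries lay above all 6 at 21 °C. RGF5 starts 148 bases after the end of RIN3 on the same strand, and RIN3 went from 33.9 to 129 CPM in the same nuclei; its part in the counts of RGF5 was not tested. AT3G52680, an F-box protein gene, rose by 1.05 ± 0.42 (edgeR adjusted p = 0.0347). Of the 9 risers 1 had a heat shock element pair in its upstream window, and of the 135 that fell, 21 (15.6%).

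The levels in heated Col-0 nuclei are given as a description because the libraries at 21 °C chose the members, and the difference between genotypes in the change with heat was not tested. The median member mean was 8.09 CPM at 21 °C and 2.69 CPM at 37 °C, and 67 of the 234 still had at least 5 CPM at 37 °C. In tho5ab nuclei 180 of 234 had at least 5 CPM at 21 °C and 37 at 37 °C. These counts include libraries of high opposite-strand counts. In the other libraries alone, 40 members had at least 5 CPM in heated Col-0 nuclei (4 libraries). In tho5ab nuclei 126 did at 21 °C (3 libraries) and 33 at 37 °C (5 libraries). The levels are plain CPM, and mean TMM factors at 37 °C were 1.60 for Col-0 and 1.29 for tho5ab nuclei. All heated Col-0 libraries lay below all those at 21 °C for 122 of 220 members, and above them for 7 (25.5% and 22.5% of all genes tested). Both groups held both kinds of library. Among the 168 tested members that kept 5 CPM in the Col-0 libraries of low opposite-strand counts at 21 °C, the counts were 117 and 7. Among the 123 with no overlap the counts were 85 and 0. ATCSLA15 went from 8.31 to 13.4 CPM down to at most 0.382 CPM, AT4G04750 from 36.3 to 55.3 CPM down to 2.10 to 3.13 CPM, and NF-YC12 from 42.9 to 65.7 CPM down to 18.6 to 25.3 CPM. RGF5 went from 4.17 to 7.97 CPM to 6.36 to 11.3 CPM, so that both ranges overlapped. AT1G73066, a leucine-rich repeat protein gene that overlaps AT1G73065, went up from 32.4 to 49.1 CPM to 51.2 to 71.7 CPM in Col-0 and stood at 18.9 to 38.4 and 20.002 to 27.8 CPM in tho5ab (0.19 ± 0.24 for the latter pair, edgeR adjusted p = 0.508). LPA3 ends 223 bases upstream of AT1G73066 on the same strand. Its mean went from 137 to 244 CPM in Col-0 and from 155 to 146 CPM in tho5ab nuclei, and its part was not tested.

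**Figure D5:**
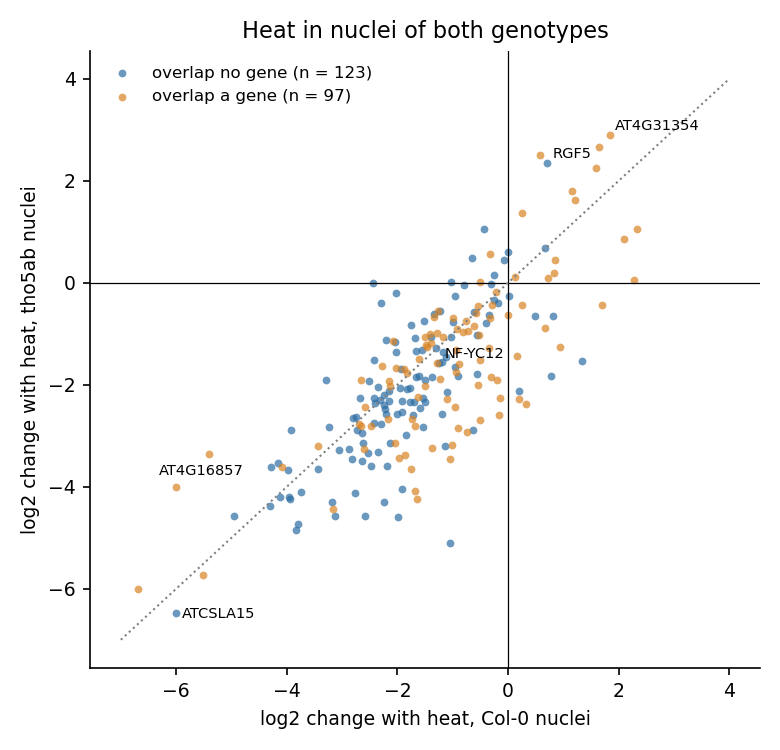
Log2 change with heat in Col-0 nuclei (horizontal) and tho5ab nuclei (vertical) for the 220 tested members, TMM-scaled, with members that overlap no gene in blue, those that overlap a gene in orange, and a dotted line of equal change. Most points lie in the lower left; the Col-0 values share the libraries that chose the members.

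At 21 °C the level of members in tho5ab nuclei is set beside that in Col-0 nuclei, again as a description. The median log2 difference was -0.12 (-0.03 over all genes tested). In 4 members (1.8%) all tho5ab libraries lay above those of Col-0, and in 29 (13.2%) all lay below. Over all genes tested these shares were 12.3% and 13.2%. Both groups held both kinds of library. All of the 4 and the 29 were among the 168 tested members that kept 5 CPM in the Col-0 libraries of low opposite-strand counts. Of the 29, 22 overlap no gene. In the libraries of low opposite-strand counts alone, the median member had 5.6 CPM in tho5ab (3 libraries) and 7.11 CPM in Col-0 (4 libraries). Among the tested members with no overlap that kept 5 CPM in those Col-0 libraries, 20.6% lay below and 1.9% above. Their median log2 difference was -0.30, with members chosen by the Col-0 side. BGLU1 had 5.93 to 11.6 CPM in tho5ab and 23.6 to 41.4 CPM in Col-0, AT5G22794 had 20.7 to 29.4 and 34.4 to 74.1 CPM, and NF-YC12 had 24.5 to 42.6 and 42.9 to 65.7 CPM. QWRF3 had 32.3 to 50.7 CPM in tho5ab and 17.2 to 22.3 CPM in Col-0.

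At 37 °C, where neither group took part in the choice, 29 of 220 members were lower in tho5ab than in Col-0 nuclei and 16 were higher, against 15.9% lower and 18.5% higher over all genes tested (17.5% and 19.1% over the others with at least 5 CPM in Col-0 nuclei at 21 °C). The share of lower members was 13.2% and that of higher ones 7.3%. The number lower was not stable, at 59 with DESeq2's Wald test, 47 with only the 2 groups fitted and 44 with a covariate for the kind of library, and so its place against the background is not read. Calls among all genes tested were 53.9% higher with TMM and 42.8% higher with DESeq2 size factors, and the latter gave 39 lower and 15 higher members. The median log2 difference of the members was -0.43 (-0.08 over all genes tested). Among members with no overlap 20 of 123 were lower and 7 higher. The number lower depended on single replicate numbers, at 54 without replicate 4 and 17 without replicate 6.

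Lowest among those past the threshold was ROPGEF2, an activator of ROP GTPases (AT1G01700, chr1:259307-261667, reverse strand, no overlap), at 0 to 0.343 CPM in heated tho5ab nuclei and 0.0602 to 5.16 CPM in heated Col-0 nuclei (-3.11 ± 0.97, edgeR adjusted p = 0.0113). Its groups overlapped, the call was lost without replicate 2, and at 21 °C it had 13.3 and 18.0 CPM in the Col-0 libraries of high opposite-strand counts against 1.42 to 1.67 CPM in the other 4. AT4G19370, a DUF1218 protein gene with no overlap, had 0 to 0.387 CPM in tho5ab against 1.27 to 2.52 CPM (-2.99 ± 0.65, edgeR adjusted p = 0.000335). AT1G07560, a leucine-rich repeat kinase gene, and AT1G76530, an auxin efflux carrier family gene, were lower by 2.64 ± 0.51 and 2.48 ± 0.46 (log2 differences of -2.64 and -2.48, edgeR adjusted p = 7.95e-05 and 3.61e-05), and both overlap a gene. AT1G76520, 158 bases upstream of AT1G76530 on the same strand, had a mean of 14.8 CPM in heated tho5ab and 51.6 CPM in heated Col-0 nuclei. Its part was not tested. BGLU1 had 0.258 to 1.03 CPM in tho5ab and 2.87 to 7.04 CPM in Col-0 (-2.37 ± 0.54, edgeR adjusted p = 0.000615), with no overlap between groups. NF-YC12 was lower too, at 4.8 to 10.8 CPM against 18.6 to 25.3 CPM (-1.09 ± 0.30, edgeR adjusted p = 0.00353), as was AT5G22794 (-1.20 ± 0.25, edgeR adjusted p = 0.000205).

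Highest in tho5ab among those past the threshold was AT4G16857, a gene of the TIR-NBS-LRR class of disease resistance proteins that overlaps AT4G16855 and has a near-identical copy, AT4G16920. It had 1.51 to 3.43 CPM in heated tho5ab nuclei and 0.303 to 2 CPM in heated Col-0 nuclei (2.23 ± 0.43, edgeR adjusted p = 8.69e-05), after 43.4 to 54.0 and 38.8 to 50.2 CPM at 21 °C. AT2G40715 differed by 2.03 ± 0.28 and AT4G31354 by 2 ± 0.24 (edgeR adjusted p = 3.98e-07 and 4.42e-08). RGF5 had 22.6 to 34.1 CPM against 6.36 to 11.3 CPM (1.91 ± 0.41, edgeR adjusted p = 0.000293). AT5G17830, a choline transporter-like gene with no overlap, had 4.29 to 6.49 CPM against 0.955 to 3.64 CPM (1.5 ± 0.42, edgeR adjusted p = 0.00551).

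All 13 NF-YC genes are in the table and NF-YC12 is the only member; the levels that chose it are given with those of its family as a description. At 21 °C Col-0 nuclei held 57.8 CPM of it, and the cytoplasm 0.107 CPM. NF-YC1 had 58.9 CPM in those nuclei and 27.8 CPM in the cytoplasm, NF-YC9 had 30.6 CPM and 51 CPM, NF-YC11 had 82.2 and 24.8 CPM, and NF-YC5, NF-YC6, NF-YC7 and NF-YC8 had at most 0.16 CPM in nuclei. With heat in tho5ab nuclei 4 of the 8 tested family genes rose and 2 fell (median 0.32), and in tho5ab nuclei against cytoplasm 5 were higher and 3 lower at 21 °C (median 0.52) and 3 higher and 4 lower at 37 °C (median -0.69). At 37 °C 3 were higher and 2 lower in tho5ab than in Col-0 nuclei (median 0.17). The medians of all genes tested in these 4 comparisons were -0.07, 0.48, 0.42 and -0.08. In the same order 25.1%, 40.5%, 37.0% and 18.5% of all genes tested were higher, and 27.1%, 27.4%, 26.9% and 15.9% were lower. No gene of the FRIGIDA family, named for a repressor of flowering, is a member. FRL2 had 27 CPM in Col-0 nuclei and 29 cytoplasmic counts. Of the 3, 2 were higher and 1 lower in tho5ab nuclei than cytoplasm at 21 °C (median 2.55) and 2 higher and 0 lower at 37 °C (median 1.78). With heat 1 rose and 0 fell in tho5ab nuclei (median 0.40), and 1 was higher and 0 lower in tho5ab than in Col-0 nuclei at 37 °C (median -0.27).

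Over the 24 nuclear libraries the mean of log2(TMM-scaled CPM + 0.5) over the 220 tested members was most like that of ABCI17 (Pearson r = 0.967), AT1G74440 (0.957) and PIL2 (0.956) among other genes. This is a description over libraries that share groups, depth and kind.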

How the data were processed

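Nuclear and cytoplasmic RNA of 48 libraries (8 groups of 6) was used as the deposited count table, read counts per gene that the authors did not normalize. Libraries were made with a NuGEN Universal Plus kit with depletion of ribosomal RNA, per the labels' protocols. STAR 2.7.8a, Picard, UMI-tools, featureCounts and the build TAIR10 are named in the submitters' processing notes; the strand setting is not given in the sources used here. ERCC RNA was added, per the labels, and was not used here.

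Levels are plain CPM. Fold changes come from edgeR 4.0.16 (R 4.3.3), quasi-likelihood F test, TMM scaling, filterByExpr over the 8 groups (17981 genes), 1 mean per group over all 48 libraries, with Benjamini-Hochberg adjustment over all genes tested and a threshold of 0.05. Errors of log2 changes are approximate standard errors, the change over the square root of F. The Col-0 libraries that chose the members are in no contrast tested for them, but they share in the filter, the scaling and the spread behind every p-value. Overlaps were read from the RefSeq annotation, and near-identical copies were found with blastn 2.17.0+ (95% identity over at least 25% of the transcript). The floor of 3 counts covers counting error only.

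Named genes are the 10 members highest in Col-0 nuclei, up to 5 with the highest and lowest called change in each test (3 for the tests of fractions), the 5 with most tho5ab cytoplasmic counts, the neighbours of each limit, and members of the NF-YC and FRIGIDA lists. SLO2, CRR4, RLP2, RLP38, RLP48, RLP52, CRK4, WNK3 and the risers AT4G10843, AT1G19397, AT3G46730 and AT3G52680 were named after their values were seen. The members and lists were chosen with earlier results of these data known. Alternatives were DESeq2 1.42.0 size factors and its Wald test, no filter, 2 groups only, each replicate number left out, a replicate block, a covariate for or removal of libraries with high opposite-strand counts, and other limits. The alternatives without tho5ab nuclear replicate 7 at 37 °C and with members at 5 CPM in the other 4 Col-0 libraries were chosen after seeing the data.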

Additional observations from a re-analysis of the deposited data

Results flagged for a closer look

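Of 144 groups of 6 libraries examined, 20 held a library set apart from the other 5, where chance gives about 1 in 20; 11 of the 20 libraries were of high opposite-strand counts. Replicate 4 of heated tho5ab nuclei, the only library of that kind in its group, stood apart in 6 of them. Its summed level of all members was 1696 CPM against 872 to 1090 CPM. It held 107 CPM of AT3G59070, 31.2 CPM of ANX1, 4.63 CPM of AT4G13572 and 4.28 CPM of ABCG41, all above the rest, and 1.71 CPM of AT3G26922, below the rest.

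In heated Col-0 nuclei replicate 6 was high in AT4G31405 (133 CPM), BGLU1 (7.04 CPM) and AT4G31354 (37.1 CPM), and replicate 3 in AT4G16857 (2 CPM against at most 0.481 CPM). In Col-0 nuclei at 21 °C replicate 2 was high in AT1G73066 (49.1 CPM) and ATCSLA15 (13.4 CPM), and replicate 4 in AT5G17830 (9.3 CPM).

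In tho5ab nuclei at 21 °C replicate 7 was high in AT2G40715 (19.4 CPM) and AT4G31354 (27.3 CPM), replicate 5 in AT3G14463 (13.1 CPM), replicate 1 in AT5G17830 (7.91 CPM) and replicate 4 in AT1G76530 (16.8 CPM). In heated tho5ab nuclei replicate 2 was high in RGF5 (34.1 CPM), and replicate 5 held 0.155 CPM of ATCSLA15 where the other 5 libraries held 0.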

How the results depend on the processing

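Over the named members and all alternatives, 1307 values kept their direction and side of the threshold, 90 kept the direction but lost the call, and 0 reversed. These totals do not hold every value under every alternative. With only the 2 groups compared 75 were kept and 5 lost the call, where DESeq2's Wald test had 95 and 2. Most named members were picked for passing a test. Over all members, 144 were called for heat in tho5ab nuclei. With the covariate for high opposite-strand counts 139 of these were kept and 1 had the opposite sign. With only the 2 groups compared, the filter was set anew from the libraries of each fit. In the fits of fractions fewer genes passed, and 85 members were higher in tho5ab nuclei than cytoplasm at 21 °C and 39 at 37 °C. In the fits of 2 nuclear groups 15 rose with heat, and 27 were higher and 47 lower in tho5ab at 37 °C. A covariate for libraries of high opposite-strand counts gave 16 that rose with heat and 44 lower in tho5ab at 37 °C, and DESeq2's Wald test gave 59 lower; the cause was not tested. Smaller member sets gave smaller counts by construction. With 0 cytoplasmic counts the set had 68 members, of which 47 and 34 were higher in nuclei, 34 fell with heat, and 9 were higher and 11 lower in tho5ab at 37 °C. With 10 CPM it had 80, of which 70 and 42 were higher in nuclei, 3 rose and 50 fell, and 6 were higher and 12 lower in tho5ab. Without overlap 98 and 57 were higher in nuclei, 2 rose and 89 fell, and 7 were higher in tho5ab. TMM-scaled totals left 97 members. Leaving out a replicate number gave 17 to 54 lower in tho5ab at 37 °C. Without replicate 7 of heated tho5ab nuclei 9 rose and 136 fell, 14 were higher and 27 lower in tho5ab at 37 °C, and 98 were higher in nuclei at 37 °C; without replicate 7 in every group these were 9, 127, 15, 30 and 96. The labels give no pairing by number, and same-numbered libraries had correlations of their deviations from -0.471 to 0.556, with the own number the best match in 11 of 23 pairs; with a replicate block 10 rose and 147 fell, 15 were higher and 25 lower in tho5ab at 37 °C, and 186 and 102 were higher in nuclei. Cytoplasmic depth limits the count rule, since 1 count over the 12 libraries moves a gene across it.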
